A study of Homo sapiens with 148 samples.

Results

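The 10 genes described here write, read or recruit methylation of lysine 9 of histone H3 (H3K9), and all 10 were found by name among the 49085 gene names of a table of RNA levels. They are the methyltransferases SETDB1, SUV39H1, SUV39H2, EHMT1 and EHMT2, the heterochromatin protein 1 (HP1) genes CBX1, CBX3 and CBX5, the SETDB1 recruiter TRIM28 and the chromatin remodeller ATRX. Each had 1 entry in the table and a level of at least 1 TPM (a measure corrected for transcript length and set to the same total in each sample) in every stage, as did 13938 names in all.

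RNA-seq was made from WT H9 cells, an established human embryonic stem cell line (hESCs), and from later stages. Those with a stated day were cells of the same line taken through pancreatic differentiation as floating spheroids. The stages were undifferentiated hESCs, definitive endoderm (DE, day 4), primitive gut tube (PGT, day 7), pancreatic progenitors (PP, day 14), a stage that the labels call PH and that is neither dated nor defined in the sources used here, and organoids of β cells derived from the stem cells (SC-β, day 35). PH stands between PP and SC-β below only by the order of the deposited columns. Whether it lies on this differentiation path is not known. The differentiation media held Activin A, CHIR99021 and Y27632 first, KGF next, then KGF with Sant1, retinoic acid (RA), LDN193189, PdBU and Y27632, then Sant1, RA, XXI, Betacellulin, Alk5i II and T3, and at the end Alk5i II and T3. By the labels, each stage had 2 RNA-seq samples, 12 in all, and the table gives only the authors' mean of each stage, so replicate spread and counting error are unknown, depth is known only as a minimum that the study states for every replicate, and no difference could be tested. All values are from 1 cell line, and in bulk RNA fewer cells of a type and less RNA per cell cannot be told apart.

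H3K9 methylation is a hallmark of silent chromatin. SETDB1, SUV39H1 and SUV39H2 make the trimethylated form (H3K9me3), which marks repeats and constitutive heterochromatin, whereas EHMT1 (GLP) and EHMT2 (G9a) act together as a heterodimer that makes most mono- and dimethylation (H3K9me1 and H3K9me2) in euchromatin. HP1 proteins bind the methylated lysine through a chromodomain, and HP1β (CBX1), HP1γ (CBX3) and HP1α (CBX5) differ in where in the nucleus they gather. TRIM28 (KAP1) links KRAB zinc finger proteins to SETDB1, and ATRX, with its partner DAXX, deposits histone H3.3 at heterochromatin.

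In the GENCODE annotation of GRCh38 the genes lie apart from each other. SETDB1 (ENSG00000143379.13) is at chr1:150926263-150964744 on the plus strand, SUV39H1 at chrX:48695554-48709016 on the plus strand and SUV39H2 at chr10:14878820-14904315 on the plus strand. EHMT1 is at chr9:137618992-137870016 on the plus strand and EHMT2 at chr6:31879759-31897698 on the minus strand. CBX1 is at chr17:48070052-48101478 on the minus strand, CBX3 at chr7:26201162-26213607 on the plus strand and CBX5 at chr12:54230942-54280133 on the minus strand. TRIM28 is at chr19:58544064-58550722 on the plus strand and ATRX at chrX:77504880-77786233 on the minus strand.

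The sequences just upstream of 4 of these genes are shown because these 4 had the largest folds between their highest and lowest stages. They are the stretches without annotated exons in the promoter windows of RefSeq (GRCh38.p14), written 5′ to 3′ on the gene's own strand, with capitals marking CGCANGCG, the core of the site known for the factor NRF1, on either strand.
SETDB1, chr1:150926013-150926262, plus strand: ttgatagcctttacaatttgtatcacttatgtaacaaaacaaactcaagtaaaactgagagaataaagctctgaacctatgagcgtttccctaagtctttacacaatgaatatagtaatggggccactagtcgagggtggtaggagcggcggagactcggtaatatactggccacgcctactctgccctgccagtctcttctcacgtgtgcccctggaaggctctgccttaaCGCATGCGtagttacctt
CBX5, chr12:54280134-54280192, minus strand: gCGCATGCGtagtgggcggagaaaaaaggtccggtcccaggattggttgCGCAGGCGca
EHMT2, chr6:31897699-31897784, minus strand: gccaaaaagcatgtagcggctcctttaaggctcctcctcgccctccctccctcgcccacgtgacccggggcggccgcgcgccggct
SUV39H2, chr10:14878728-14878819, plus strand: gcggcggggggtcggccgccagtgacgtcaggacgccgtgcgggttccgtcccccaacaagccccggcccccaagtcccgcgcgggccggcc

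The stretches of SETDB1 and CBX5 share the 12 bases CGCATGCGTAGT, a word found in 10 of 35116 promoter windows of 300 bases (0.0285%). It was picked as the longest word shared by the windows of these genes, which are among the 10, so their match was fixed beforehand. Over the whole windows, CGCANGCG was present in those of 5 of the 8 members with a RefSeq window (SETDB1, SUV39H2, EHMT1, EHMT2 and CBX5), against 10% of all windows and 16.1% of the windows of genes that reached 10 TPM in some stage. The windows run into the first exon, and the matches of EHMT2 and SUV39H2 lie outside the stretches printed above. TTTGGCG, the core of a site known for E2F factors, was in the windows of CBX3 and CBX5, against 1.92% of all windows. Both motifs were searched on both strands and were chosen after these sequences had been read. A match is only a match of letters, and no factor's binding was measured here. TRIM28 and ATRX had no window in the set used and so were not searched.

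TRIM28 had the highest level of the 10 in every stage, SUV39H1 the lowest and SUV39H2 the next lowest. CBX5 and EHMT2 changed place most, as the plot of levels by stage shows. In SC-β only TRIM28 was above CBX5, but in PH all members except ATRX, SUV39H1 and SUV39H2 were. EHMT2 was just above SETDB1 in hESCs, and in PH only TRIM28 and CBX1 were above it. With no replicate spread, it cannot be said which neighbours in the order differ.

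**Figure D1:**
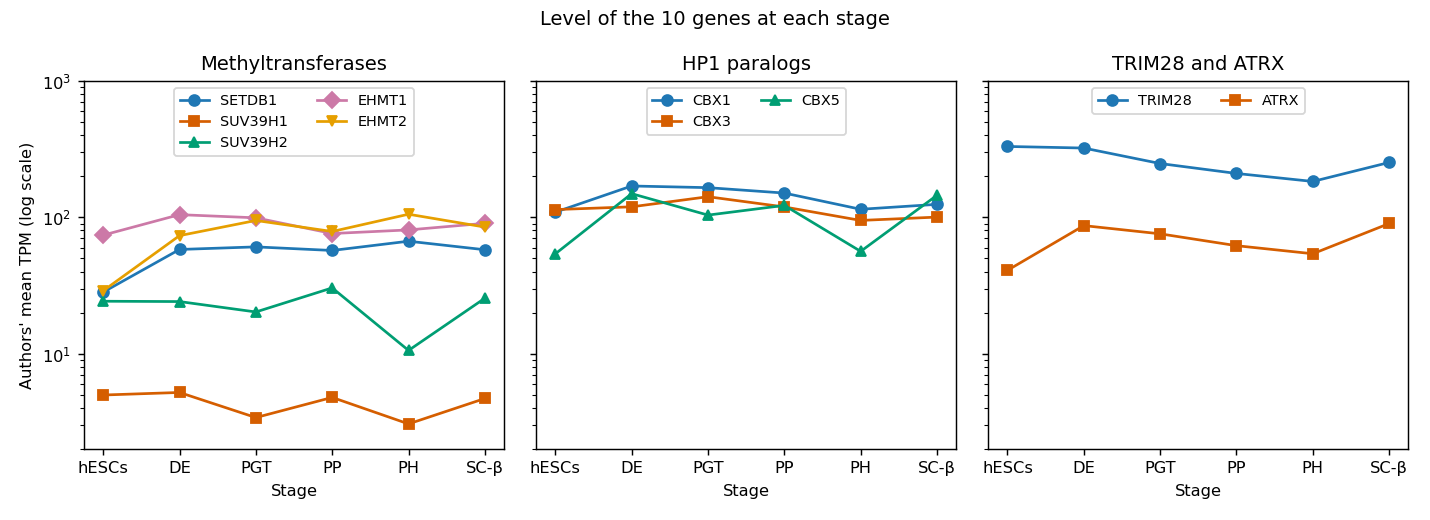
Authors' mean TPM on a log scale for the 10 genes at each of the 6 stages, in a panel each for the methyltransferases, the HP1 paralogs, and TRIM28 with ATRX; each point is 1 stage mean with no error bar. EHMT2 goes from 28.9 TPM in hESCs to 105.3 in PH, and CBX5 and SUV39H2 both dip in PH.

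The stages also differed in overall scale, which sets how far a ratio can be read. The median ratio of genes that reached 1 TPM in every stage lay above hESCs by 0.48 (log2) in DE and 0.34 in PGT, then 0.25 in PP, 0.03 in PH and 0.52 in SC-β. The members' log2 ratios to hESCs below, log2((TPM + 1)/(TPM in hESCs + 1)), are therefore given as deposited and again after each stage was divided by its median-ratio factor ("rescaled"). Every ratio to hESCs shares the same hESC column, so the 5 ratios of a gene are not separate evidence. The abundant noncoding RNAs RMRP, RPPH1, RN7SK and those of the signal recognition particle (RN7SL1, RN7SL2 and Metazoa_SRP) together took from 31.8% of the summed TPM in DE to 50.9% in PH.

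Among the H3K9me3 methyltransferases, SETDB1 was the one with a higher level in every differentiated stage than in hESCs. SETDB1 was listed at 28.2 TPM in hESCs, 58.1 in DE and 60.7 in PGT, then 57.1 in PP, 66.8 in PH and 57.8 in SC-β. hESCs had the lowest value and PH the highest, 2.37 times the lowest (2.32 times after rescaling). As deposited the 5 differentiated stages lay close together, which was not so after rescaling. As log2 ratios to hESCs these were 1.01 in DE and 1.08 in PGT, then 0.99 in PP, 1.21 in PH and 1.01 in SC-β. Rescaled they were 0.54, 0.75, 0.75, 1.19 and 0.50, above hESCs throughout but 2-fold above only in PH.

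SUV39H2, in contrast, was near its hESC level in most stages as deposited, and low in PH on both scales. Its levels were 24.2 TPM in hESCs, 24.1 in DE and 20.2 in PGT, then 30.3 in PP, 10.5 in PH and 25.5 in SC-β. The PH value was the lowest and the PP value the highest, a 2.88-fold range (2.46-fold rescaled). From PP to PH the log2 ratio was -1.44 (-1.24 rescaled), and from hESCs to PH it was -1.13 (-1.16 rescaled). From PH to SC-β it was 1.20, or 0.73 rescaled. The ratios to hESCs in DE, PGT, PP and SC-β were -0.01, -0.25, 0.31 and 0.07 as deposited. Rescaled they were -0.47, -0.57, 0.07 and -0.43, near the hESC level only in PP, and that of SC-β changed sign.

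SUV39H1, the founding member of the family, was the lowest of the 10. It was listed at 4.96 TPM in hESCs, 5.18 in DE and 3.39 in PGT, then 4.76 in PP, 3.05 in PH and 4.68 in SC-β. Its log2 ratios to hESCs were 0.05, -0.44, -0.05, -0.56 and -0.07 from DE to SC-β. Rescaled they were -0.35, -0.72, -0.26, -0.60 and -0.50, all below hESCs. PGT and PH were its low stages, as they were for SUV39H2, and the 2 genes had a Pearson's r of 0.84 (0.75 rescaled) over the 6 stages in log2(TPM + 1), a description over points that share the scale of each column. SUV39H2 was 4.88 times SUV39H1 in hESCs and between 3.46 times (PH) and 6.36 times (PP) in the other stages.

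Within a stage the makeup of the 3 enzymes does not depend on scaling. SETDB1 made up 49.2% of their summed TPM in hESCs, 66.5% in DE and 72.0% in PGT, then 61.9% in PP, 83.1% in PH and 65.7% in SC-β. SUV39H2 made up 42.2%, 27.6%, 24.0%, 32.9%, 13.1% and 29.0% in the same order. SETDB1 and SUV39H2 thus had similar levels in hESCs only, with a ratio of 1.17, and were farthest apart in PH, with a ratio of 6.33. This pooling of the 3 enzymes was chosen after their values had been seen.

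The low SUV39H2 in PH came with low levels of genes of DNA replication and mitosis. Of 14 proliferation genes, 11 were at least 2-fold below hESCs in PH on both scales, against 14.5% of all names (15.5% rescaled). Their median log2 ratio was -1.81 (-1.84 rescaled), and 1 lay above hESCs. Their summed TPM was 1739 in hESCs, 1299 in DE and 745 in PGT, then 1271 in PP, 538 in PH and 1248 in SC-β, so PGT and PH were the low stages here too. MCM5, a subunit of the replicative helicase, had a log2 ratio of -2.56 in PH and -1.34 in SC-β, whereas MKI67, which encodes the proliferation antigen Ki-67, had 0.47 and 0.94. Rescaled, these were -2.59 and -1.86 for MCM5 and 0.45 and 0.44 for MKI67. The part of these lower levels in the SUV39H2 value was not tested.

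The genes whose pattern over the 6 stages was most like that of SUV39H2, among 6533 genes at a mean of 10 TPM or more and with a range of at least 1 in log2(TPM + 1), included HIST1H2BC (r = 0.993) and AS3MT (0.985). HIST1H2BC encodes a histone H2B and AS3MT an arsenic methyltransferase. In all, 35 genes reached r of 0.95 with SUV39H2.

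The H3K9me1 and H3K9me2 pair changed in balance. EHMT2 had the widest range of the 10, with 28.9 TPM in hESCs, 73.3 in DE and 94.8 in PGT, then 78.7 in PP, 105.3 in PH and 84.7 in SC-β. Every differentiated stage was above hESCs, PH the most. The highest stage was 3.65 times the lowest, or 3.58 times after rescaling. The log2 ratios to hESCs were 1.31, 1.68, 1.41, 1.83 and 1.52 from DE to SC-β, and 0.84, 1.35, 1.17, 1.81 and 1.01 rescaled. EHMT2 was the only member that stayed 2-fold or more above hESCs in PGT, PP and SC-β after rescaling.

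EHMT1, its partner, had the narrowest range. It was listed at 74.0 TPM in hESCs, 104.6 in DE and 99.1 in PGT, then 76.0 in PP, 80.8 in PH and 90.3 in SC-β, a 1.41-fold range (1.26-fold rescaled). Its ratios to hESCs lay between 0.04 (PP) and 0.49 (DE) as deposited and between -0.23 (SC-β) and 0.10 (PH) rescaled, and the direction turned in PP and SC-β. EHMT1 was 2.56 times EHMT2 in hESCs, 1.43 times in DE and 1.05 times in PGT, then 0.966 times in PP, 0.767 times in PH and 1.07 times in SC-β. From PGT on, EHMT1 was thus at most 1.07 times EHMT2.

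The 3 genes most like EHMT2 over the stages were ATAT1 (r = 0.999), which encodes the α-tubulin acetyltransferase, HEXDC (0.998), a hexosaminidase, and ZFP14 (0.997), a zinc finger protein, and 204 genes reached 0.95. Among the members, SETDB1 and EHMT2 had an r of 0.989 (0.982 rescaled), again over 6 stage means. Both genes were lowest in hESCs and highest in PH.

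**Figure D2:**
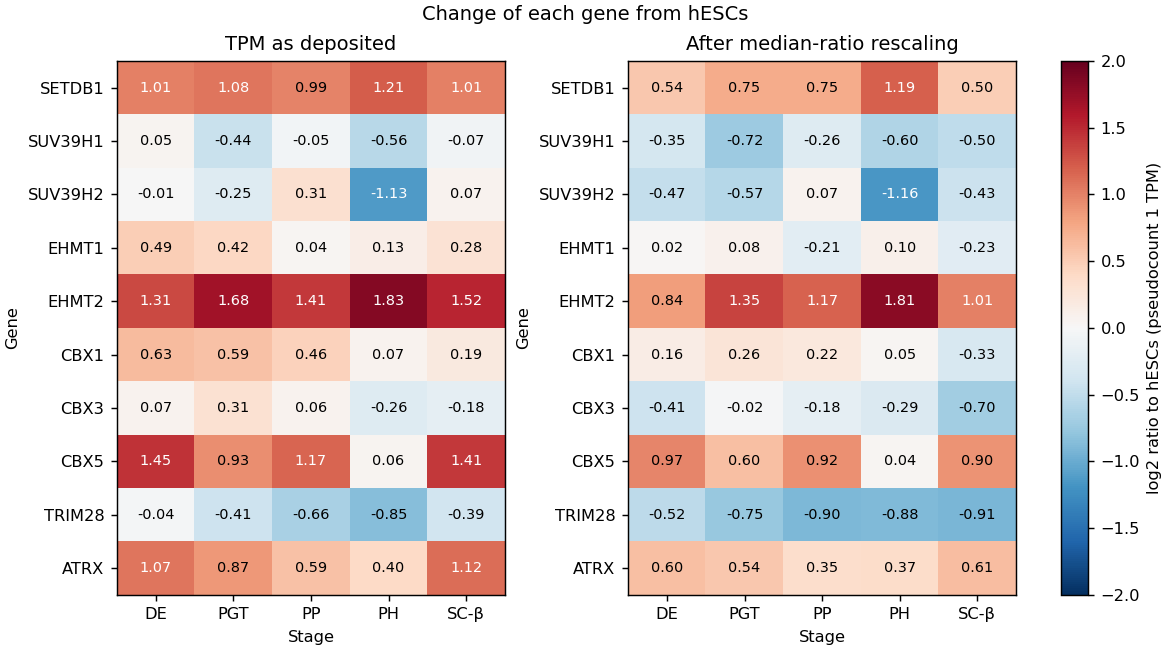
Log2 ratio of each differentiated stage to hESCs for the 10 genes, with TPM as deposited (left) and after each stage was divided by its median-ratio factor (right); red is above and blue below hESCs, and the number in each cell is the ratio. SETDB1, EHMT2 and ATRX are above hESCs in all 5 stages on both scales, and TRIM28 is below in all 5.

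Among the HP1 genes, CBX5 varied most. It was listed at 53.9 TPM in hESCs, 149.1 in DE and 103.8 in PGT, then 122.2 in PP, 56.2 in PH and 145.1 in SC-β. hESCs and PH were its low stages on both scales. As deposited DE and SC-β were its high ones, but rescaled PP (124.4) lay above SC-β (122.3). Its range was 2.77-fold, or 1.98-fold after rescaling. Its log2 ratios to hESCs were 1.45, 0.93, 1.17, 0.06 and 1.41 from DE to SC-β, and 0.97, 0.60, 0.92, 0.04 and 0.90 rescaled. From PP to PH the ratio was -1.11 (-0.89 rescaled), and from PH to SC-β it was 1.35 (0.86 rescaled).

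CBX1 and CBX3 changed less. CBX1 was at 109.0 TPM in hESCs, 169.8 in DE and 165.0 in PGT, then 150.6 in PP, 114.5 in PH and 124.5 in SC-β. Its ratio to hESCs was highest in DE as deposited, at 0.63, but in PGT when rescaled, at 0.26, and that of SC-β turned from 0.19 to -0.33 on rescaling. CBX3 was at 113.9 TPM in hESCs, 119.4 in DE and 141.6 in PGT, then 119.1 in PP, 94.8 in PH and 100.3 in SC-β. CBX3 lay below hESCs in PH (-0.26, rescaled -0.29) and in SC-β (-0.18, rescaled -0.70), and its small ratios in DE, PGT and PP, 0.07, 0.31 and 0.06, were all below 0 when rescaled, at -0.41, -0.02 and -0.18.

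The makeup of the HP1 family shifted between CBX3 and CBX5. CBX5 gave 19.5% of the summed TPM of the 3 genes in hESCs, 34.0% in DE and 25.3% in PGT, then 31.2% in PP, 21.2% in PH and 39.2% in SC-β. CBX3 gave 41.1%, 27.2%, 34.5%, 30.4%, 35.7% and 27.1% in that order, and CBX1 stayed between 33.7% (SC-β) and 43.1% (PH). CBX5 was the least abundant paralog in hESCs, PGT and PH and the most abundant in SC-β. In DE and PP it ranked between CBX1 and CBX3.

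**Figure D3:**
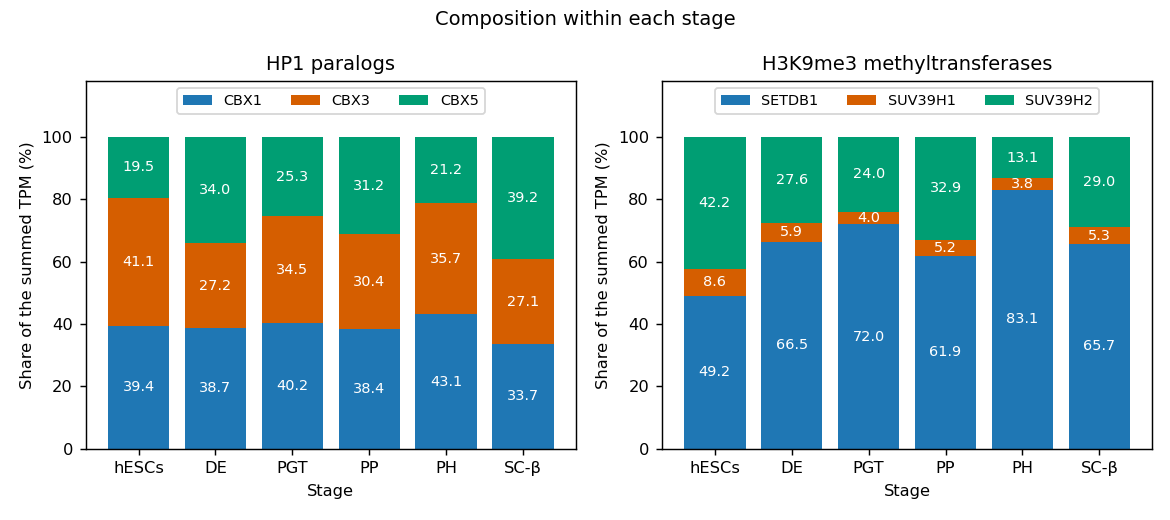
Stacked bars, starting at 0, of the share of each gene in the summed TPM of the HP1 paralogs (left) and of SETDB1, SUV39H1 and SUV39H2 (right) at each stage, in percent. CBX5 runs from 19.5% in hESCs to 39.2% in SC-β, and SETDB1 from 49.2% in hESCs to 83.1% in PH.

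Some limits of the annotation bear on the HP1 genes. The start of CBX5 lies 60 bases from that of HNRNPA1, which encodes an RNA-binding splicing factor and runs the other way, so that the CBX5 stretch printed above is the whole gap between them. HNRNPA1 was at 677 TPM in hESCs, 712 in DE and 842 in PGT, then 710 in PP, 456 in PH and 718 in SC-β. Unlike CBX5, it was close to its hESC level in DE (log2 0.07) and SC-β (0.08), values that turned to -0.41 and -0.44 on rescaling, and it was lower in PH (-0.57, rescaled -0.59). CBX3 likewise starts 367 bases within HNRNPA2B1, a related factor on the opposite strand, which was at 430 TPM in hESCs and 145 in PH. The libraries were strand-specific, but whether strand was used in quantification is not given in the sources used here, so reads in the overlap may be shared. Pseudogenes could also take reads: 9 CBX3 pseudogene names summed to between 11.2% and 17.1% of CBX3, CBX5P1 to between 2.85% and 9.68% of CBX5, and 5 CBX1 pseudogene names to at most 0.507% of CBX1. SETDB1 overlaps CERS2, and SUV39H2 overlaps DCLRE1C, at their 3′ ends on the opposite strand, and CERS2 was at 89.4 TPM in hESCs, 188.9 in PGT and 41.8 in PH, with a log2 ratio to hESCs of 1.07 (0.74 rescaled) in PGT, near that of SETDB1, and of -1.08 (-1.11 rescaled) in PH, opposite to it. EHMT2 starts 87 bases from C2, a complement gene listed at 0.475 TPM or less throughout.

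The genes most like CBX5 over the stages were SENP1 (r = 0.990), a SUMO protease, CBFB (0.988), a partner of RUNX factors, and IL13RA1 (0.987), an interleukin receptor chain, and 52 genes reached 0.95. ATRX was the member most like CBX5, with an r of 0.901 that dropped to 0.726 on rescaling.

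TRIM28 was the most abundant member and, as deposited, the only one below hESCs in every differentiated stage. Rescaled, SUV39H1 and CBX3 were also below hESCs in every differentiated stage. TRIM28 was listed at 331.0 TPM in hESCs, 322.3 in DE and 248.0 in PGT, then 209.7 in PP, 183.2 in PH and 252.6 in SC-β. The deposited values descended from hESCs through DE and PGT to PP, with the lowest value in PH and a value above PP in SC-β. As log2 ratios to hESCs they were -0.04, -0.41, -0.66, -0.85 and -0.39, and rescaled -0.52, -0.75, -0.90, -0.88 and -0.91, so that the higher level of SC-β over PH and PP was not present after rescaling. TRIM28 was 11.7 times SETDB1 in hESCs, 5.55 times in DE and 4.09 times in PGT, then 3.67 times in PP, 2.74 times in PH and 4.37 times in SC-β, a ratio chosen after the values were seen.

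ATRX was above hESCs in each differentiated stage. Its levels were 40.8 TPM in hESCs, 86.9 in DE and 75.6 in PGT, then 61.9 in PP, 54.0 in PH and 90.0 in SC-β. As deposited DE and SC-β were its high stages, as for CBX5. Rescaled, PGT (72.4) was close to DE (75.2) and SC-β (75.9). The log2 ratios to hESCs were 1.07, 0.87, 0.59, 0.40 and 1.12, and 0.60, 0.54, 0.35, 0.37 and 0.61 rescaled. DAXX, the H3.3 chaperone that ATRX works with, was at 42.8 TPM in hESCs and between 22.0 (PGT) and 33.8 (SC-β) in the other stages. ATRX was therefore 0.954 times DAXX in hESCs and between 2.05 times (PP) and 3.44 times (PGT) in the others.

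The members were then counted against all genes. In DE 4 of 10 (SETDB1, EHMT2, CBX5 and ATRX) stood 2-fold or more over hESCs, where 22.5% of the 28202 names that reached 1 TPM in at least one stage were, and none was 2-fold below, against 4.43%. In PGT 2 were above (SETDB1 and EHMT2), against 17.6%, and in PP 2 (EHMT2 and CBX5), against 13.9%. In PH 2 were above (SETDB1 and EHMT2), against 21%, and 1 was below (SUV39H2), against 14.5%. In SC-β 4 were above (again SETDB1, EHMT2, CBX5 and ATRX), against 38.6%. None was 2-fold below in PGT, PP or SC-β, where 7.56%, 7.07% and 6.44% of names were.

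The share of members above hESCs in SC-β was near that of all genes. After rescaling the counts above hESCs were 0 in DE, against 12.7% of names, 1 in PGT (12.4%), 1 in PP (11%), 2 in PH (22.2%) and 1 in SC-β (26%). Below hESCs they were 0 in DE, against 8.32%, 0 in PGT (11%), 0 in PP (9.78%), 1 in PH (15.5%) and 0 in SC-β (11.7%). The members' median log2 ratio to hESCs was 0.56 in DE and 0.51 in PGT, then 0.39 in PP, 0.06 in PH and 0.24 in SC-β, and that of all names tested was 0.44, 0.29, 0.24, 0.15 and 0.73. Rescaled, the members' medians were 0.09, 0.17, 0.14, 0.04 and -0.28, so that of SC-β changed sign, and those of all names were 0.16, 0.11, 0.12, 0.15 and 0.39. All members but SUV39H1 reached 10 TPM in some stage. Names that did so, a background chosen after seeing the data, had medians of 0.39, 0.26, 0.22, 0.02 and 0.47 as deposited. In SC-β their rescaled median was -0.01, so the gap to the members there was smaller than with all names.

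**Figure D4:**
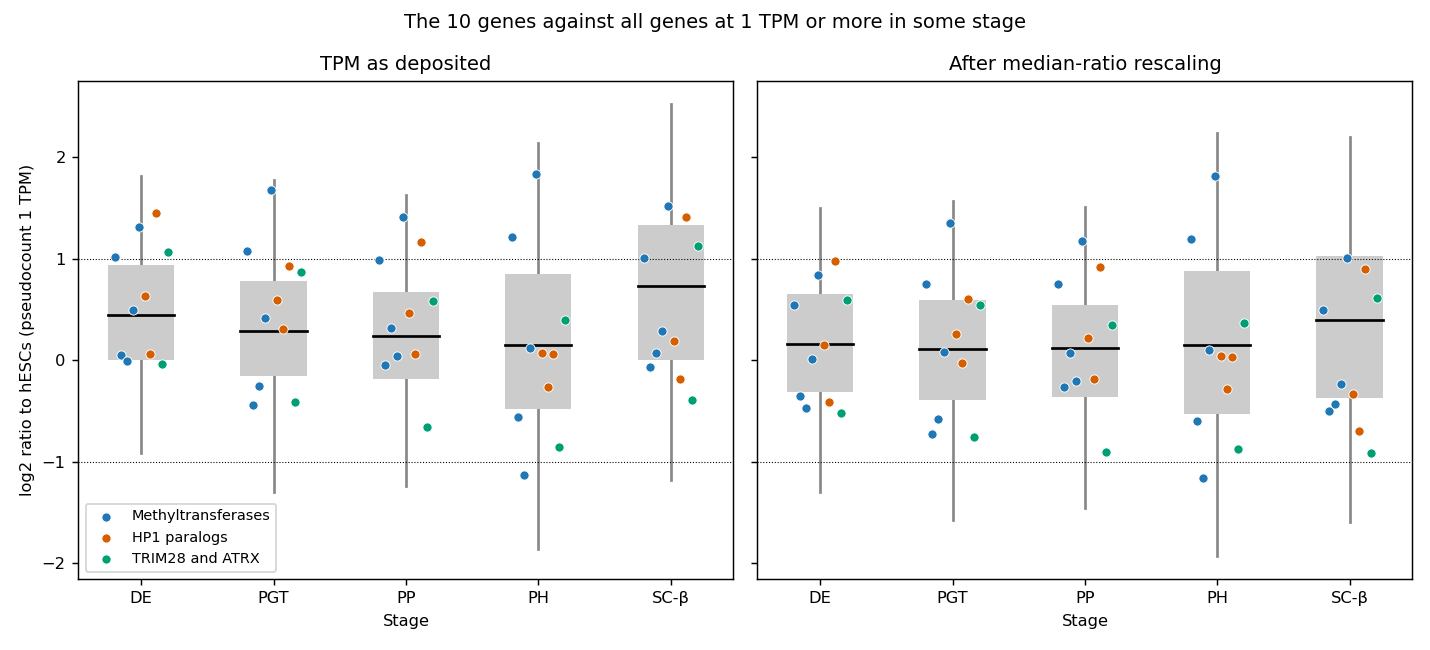
Log2 ratio to hESCs of the 10 genes (points, coloured by role) over that of the 28202 names that reached 1 TPM in some stage, drawn as the 25th to 75th percentiles (grey box), the 5th to 95th (grey line) and the median (black line), with TPM as deposited (left) and rescaled (right); dotted lines mark 2-fold. In SC-β only EHMT2 and CBX5 lie above the grey box on the left, and EHMT2 has the highest point of the 10 in PGT, PP, PH and SC-β on both scales.

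Between the other pairs of stages compared, few members moved by 2-fold. None did from DE to PGT, where 4% of names were above and 8.56% below, or from PGT to PP, where 4.77% and 5.65% were. SUV39H2 and CBX5 were 2-fold lower in PH than in PP, against 9.97% of names, and no member was 2-fold higher, against 8.94%. Both were 2-fold higher in SC-β than in PH, against 25.5%, and none was 2-fold lower, against 4.19%. After rescaling only SUV39H2 was 2-fold lower in PH than in PP, against 7.73% of names, and none was 2-fold higher in SC-β than in PH, against 14.4%. None was 2-fold apart between PP and SC-β, where 18.5% of names were higher and 1.63% lower in SC-β.

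The other genes of the pathway were counted by role. Of 5 SETDB1 partners and genes of the HUSH complex, which silences repeats with SETDB1, 1 in DE and 2 in PGT, then 0 in PP, 1 in PH and 1 in SC-β had a level at least 2 times that of hESCs, and none was 2-fold below. Of all names, 22.5%, 17.6%, 13.9%, 21% and 38.6% were 2-fold above, and between 4.43% (DE) and 14.5% (PH) below. After rescaling the counts above were 1, 1, 0, 1 and 0, against 12.7%, 12.4%, 11%, 22.2% and 26% of names. ATF7IP, which stabilises SETDB1 in the nucleus, was at 32.3 TPM in hESCs, 108.4 in DE and 95.8 in PGT, then 53.2 in PP, 49.3 in PH and 55.5 in SC-β. It had its peak early, with a rescaled log2 ratio to hESCs of 1.24 in DE and 0.25 in SC-β. MPHOSPH8, the HUSH subunit that reads H3K9me3, went from 13.5 TPM in hESCs to 38.3 in SC-β (log2 1.44, rescaled 0.94). TASOR, listed under its older name FAM208A, was at 21.9 TPM in hESCs and 44.6 in SC-β, PPHLN1 at 42.5 and 45.9, and MORC2 at 28.1 and 30.0, and the last pair were below hESCs in SC-β once rescaled (-0.40 and -0.41).

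Of 3 EHMT partners, 1 (WIZ) was at least 2-fold above hESCs and 1 (CDYL) below in every differentiated stage. Of all names, between 13.9% (PP) and 38.6% (SC-β) were above and between 4.43% (DE) and 14.5% (PH) below. After rescaling, 0, 0, 0, 1 and 1 were above, against 12.7%, 12.4%, 11%, 22.2% and 26%. Rescaled, 1 was below in each stage, against 8.32% (DE) to 15.5% (PH). ZNF644, the remaining partner, was at 51.0 TPM in hESCs and 57.3 in SC-β (log2 0.17, rescaled -0.35). WIZ, a zinc finger protein that binds the EHMT1 and EHMT2 dimer, was at 4.51 TPM in hESCs and 20.2 in SC-β (log2 1.95, rescaled 1.48). CDYL, a chromodomain protein that bridges EHMT2 to other repressors, was at 185.8 TPM in hESCs, 61.3 in DE and 49.1 in PGT, then 36.3 in PP, 26.4 in PH and 35.4 in SC-β. CDYL was 2-fold or more below hESCs in all 5 stages on both scales.

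Of 4 further genes whose products are known or proposed to methylate H3K9, 3 were at least 2-fold above hESCs in PP, PH and SC-β on both scales. Of all names, 13.9%, 21% and 38.6% were (11%, 22.2% and 26% rescaled). MECOM was at 0.300 TPM in hESCs, 0.580 in DE and 33.3 in PGT, then 49.0 in PP, 8.28 in PH and 24.5 in SC-β. PRDM2 was at 3.25 TPM in hESCs, 10.1 in PH and 15.7 in SC-β, and SETDB2 at 5.38 in hESCs, 6.60 in PH and 10.1 in SC-β. In hESCs all 4 were below every member other than SUV39H1.

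Of 11 H3K9 demethylases, 3 in DE and 3 in PGT, then 1 in PP, 5 in PH and 4 in SC-β had at least 2 times the hESC level, and none was 2-fold below. After rescaling the counts above were 1, 1, 1, 5 and 1, with JMJD1C 2-fold below in PP and SC-β. Of all names, 22.5%, 17.6%, 13.9%, 21% and 38.6% were 2-fold above as deposited, and between 4.43% (DE) and 14.5% (PH) below. Rescaled, 12.7%, 12.4%, 11%, 22.2% and 26% of names were above, and 9.78% in PP and 11.7% in SC-β were below. The list's median log2 ratio was 0.48 in PH and 0.68 in SC-β (0.46 and 0.32 rescaled), beside 0.15 and 0.73 for all names (0.15 and 0.39 rescaled). PHF2, which removes H3K9me2, was at 3.81 TPM in hESCs and 29.8 in PH (log2 2.68, rescaled 2.70). JMJD1C, of the KDM3 family, had the lowest ratio in PH, from 126.7 TPM to 64.9.

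The KDM4 enzymes, which remove H3K9me3 and H3K9me2, differed from each other. KDM4A was between 35.6 TPM (PP) and 47.1 (SC-β), and KDM4C between 13.4 (PP) and 27.6 (PH). KDM4B was at 8.07 TPM in hESCs, 11.6 in DE and 19.6 in PGT, then 15.6 in PP, 33.1 in PH and 19.4 in SC-β, above hESCs in each. KDM4D was at 3.33 TPM or less throughout. The summed TPM of SETDB1, SUV39H1 and SUV39H2 was 0.834 times that of the 4 KDM4 genes in hESCs, 1.06 times in DE and 1.03 times in PGT, then 1.38 times in PP, 0.791 times in PH and 0.958 times in SC-β. That of EHMT1 and EHMT2 was 1.5 times the KDM4 sum in hESCs and between 1.83 times (PH) and 2.37 times (PGT) in the others. These sums were also chosen after the values were seen, and a ratio of RNA levels is not one of enzyme activity.

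**Figure D5:**
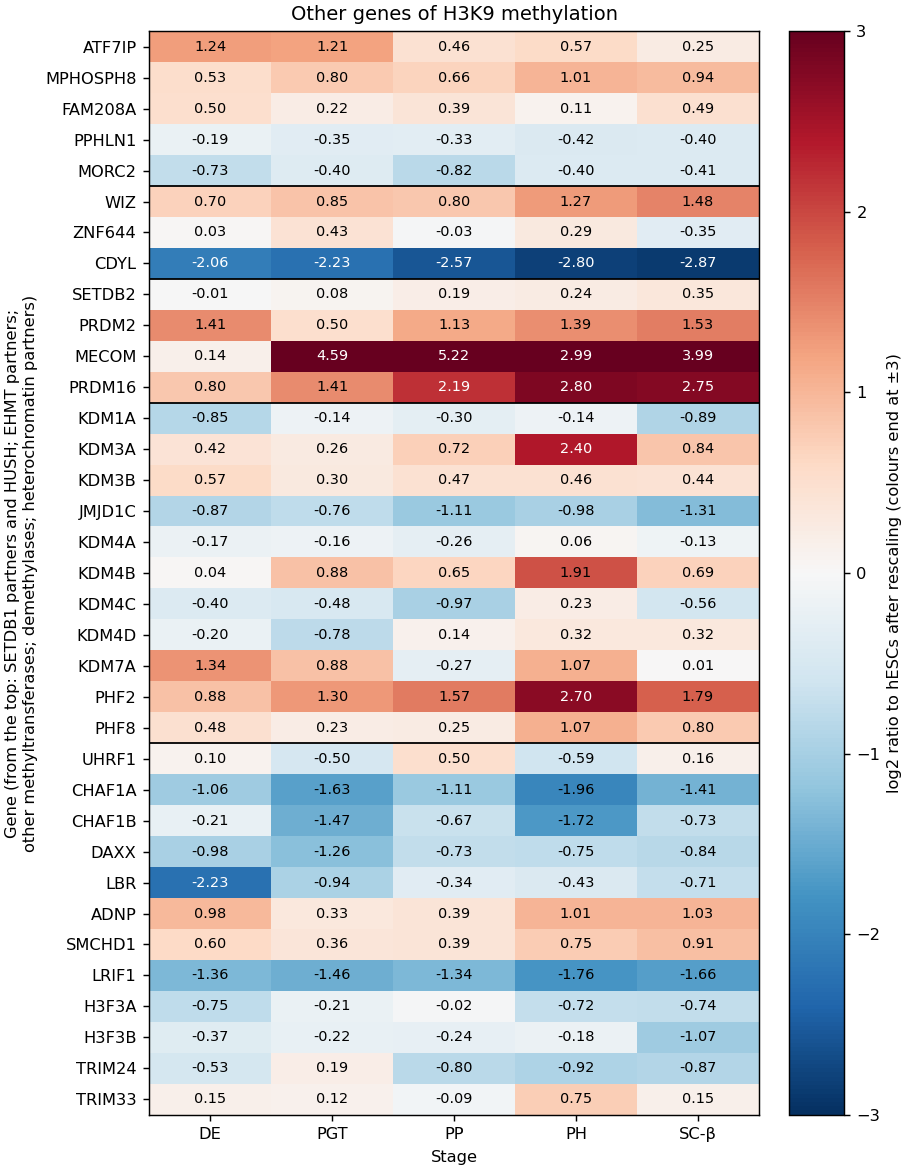
Rescaled log2 ratio to hESCs (printed in each cell) of the other genes of H3K9 methylation in each differentiated stage, in 5 groups divided by black lines; colours end at ±3, so darker values are not told apart. CDYL is below hESCs in every stage, and MECOM and PRDM16 are above in PGT, PP, PH and SC-β.

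Of 12 partners in heterochromatin, 1 was at least 2-fold above hESCs in PH and 3 below, and 2 were above and 1 below in SC-β (1 above and 3 below rescaled). Of all names, 21% were above and 14.5% below in PH, and 38.6% and 6.44% in SC-β (26% and 11.7% rescaled). The list's median was -0.63 in PH and -0.23 in SC-β (-0.65 and -0.74 rescaled). That of all names was 0.15 and 0.73 (0.15 and 0.39 rescaled). CHAF1A, the large subunit of the chromatin assembly factor that binds HP1 at replication forks, was at 81.8 TPM in hESCs and 20.8 in PH (log2 -1.93, rescaled -1.96). ADNP, which forms a complex with CHD4 and HP1 proteins, was at 13.7 TPM in hESCs and 41.4 in SC-β (log2 1.53, rescaled 1.03). LRIF1, an HP1-binding protein, had the lowest ratio in SC-β, with 19.8 TPM in hESCs and 8.22 there. UHRF1, which reads H3K9me3 together with hemimethylated DNA, was at 35.3 TPM in hESCs, 52.8 in DE and 31.2 in PGT, then 59.6 in PP, 23.5 in PH and 56.5 in SC-β, low in PGT and PH as were SUV39H1, SUV39H2 and the proliferation genes.

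Markers of the labelled stages bear on how the PH and SC-β values are read. POU5F1 was at 1449 TPM in hESCs, SOX17 was highest in DE at 96.1 and FOXA1 in PGT at 86.0, whereas PDX1, which defines pancreatic progenitors, was at only 3.17 TPM in PP. INS was at 298 TPM and GCG at 2793 in SC-β. In PH the 3 gut tube markers (FOXA1, FOXA2 and HNF4A) were between 0.292 and 1.96 TPM and PDX1 at 0.0173, while 4 of 5 neural markers were at least 2-fold above hESCs, with HES5 at 109.8 TPM and LHX5 at 43.4, and their summed TPM was 322.8 in PH and at most 132.1 in any other stage. The 4 endocrine markers were also at least 2-fold above hESCs in PH, with CHGA at 70.0 TPM, SST at 65.8, GCG at 27.2 and INS at 6.86. Of the 4 definitive endoderm markers, CXCR4 was at 106.4 TPM in PH, but GATA6 was at 0.848 and SOX17 and EOMES at 0. All 4 mesenchymal markers were 2-fold or more above hESCs in PH and in SC-β, with a summed TPM of 140.5 and 394.6 against 14.1 in hESCs. Of all names, 21% in PH and 38.6% in SC-β were 2-fold above hESCs. Of the 3 endothelial markers, VWF was at 191 TPM in DE, and PECAM1 and CDH5, which define the type, were at 0.430 TPM or less throughout. The part of these cells in the levels of the 10 genes, among them the low SUV39H2 and CBX5 and the high EHMT2 of PH, was not tested.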

How the data were processed

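The labels name both ribosomal RNA depletion of total RNA and a stranded mRNA library kit, so how far nonpolyadenylated RNA was kept is not settled. The authors used HISAT2 (version 2.2.0) for alignment to hg38 and StringTie (version 2.1.6) for TPM, and deposited 1 mean TPM per gene and stage. The annotation and strand setting behind the table are not given in the sources used here, and depth is stated only as a minimum for every replicate. The table has 50451 entries under 49085 names, and the entries of the 231 repeated names were summed.

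Ratios used a pseudocount of 1 TPM, which understates the change of low genes, and a fold of 2 on that scale was counted. Genes tested for the background had at least 1 TPM in some stage. Rescaling divided a stage by the median, over all genes kept, of the ratio to the genes' geometric means, taken from the 13938 names at 1 TPM or more in every stage. Alternatives were a pseudocount of 0.1, a fold of 1.5, removal of mitochondrial and the 100 most abundant genes, the highest entry of repeated names, the preceding stage as reference, and other backgrounds. No test was run, since only means were deposited. Of each list, the genes with the highest and lowest ratios in PH and SC-β, reaching 10 TPM in a stage compared, were named, with the KDM4 genes, ATF7IP, HUSH genes, DAXX and UHRF1. Other named genes were chosen after their values were seen. For the 3 members of widest range, the 3 genes of highest r were named, except 1 that is not reported here. Head-to-head neighbours were sought within 1000 bases. Members and lists were chosen with earlier results of these data known. Positions are from GENCODE version 44. The scripts (Python 3.11.15, pandas 2.3.3, numpy 2.4.6) were tested on simulated data.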

Additional observations from a re-analysis of the deposited data

How the results depend on the processing

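Of 720 values recomputed under the alternatives, 651 stayed on the same side of the 2-fold line or, for counts, within 1.5 times, among them values under 2-fold whose sign changed. The 651 include 190 values that took the highest entry, which could not change because each member had 1 entry. Part of the 440 member ratios below are of this kind too. After rescaling by the median ratio, the members 2-fold or more above hESCs were 0 for DE and 1 each for PGT, PP and SC-β, the count 2-fold lower in PH than in PP was 1, and that higher in SC-β than in PH was 0. The shares of all names on that scale are given above. Without the mitochondrial and the 100 most abundant genes, 2 were above hESCs in DE, against 26.7% of names, and 0 below hESCs in PH (13.4%). On that scale 1 was lower in PH than in PP (11.6%) and 0 higher in SC-β than in PH (22.5%). At 1.5-fold, 5 members were above hESCs in PGT, against 33.9% of names, and 4 in PP (29.1%). Below hESCs at that fold were 1 in PP, against 13.3%, and 2 in PH (22.6%). The median log2 ratio of the other H3K9 methyltransferases became 1.42 in DE with a pseudocount of 0.1 and 0.95 in PGT after rescaling. Against the preceding stage in place of hESCs, EHMT2 in PP turned to -0.27. Of 440 recomputed member ratios, 32 crossed 2-fold or turned past it, and 55 others, under 2-fold, changed sign, 22 of them under rescaling. Taking names at 10 TPM or more as background, an alternative chosen after seeing the data, raised the share of names 2-fold below hESCs in PH to 22%, and taking all names in the table moved all 20 background shares. No replicate could be left out, since only means were given. No paired analysis was possible because the columns are means over both replicates of a stage. Depth limits the low levels of SUV39H1 most, by an amount that is unknown here.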
